A study of Mus musculus with 11 samples.

Results

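Elastic fibres give tissue its recoil, and the 10 genes described here encode elastin and the proteins of its microfibril scaffold. They are elastin (Eln), the fibrillins (Fbn1 and Fbn2), the microfibril-associated proteins (Mfap2, Mfap4 and Mfap5), the fibulins (Fbln1, Fbln2 and Fbln5) and Emilin1. They were taken by symbol, as a list of elastic fibre and microfibril genes, from 46517 gene identifiers in the count table, and all 10 had enough counts to be tested. As background, fibrillins assemble into microfibrils, on which tropoelastin is deposited and then cross-linked by lysyl oxidases, while fibulins and EMILINs sit between the elastin core and the microfibrils. Microfibrils also hold latent TGF-beta in the matrix through its binding proteins. In the heart these proteins are found in vessel walls, valves and the interstitium, and fibroblasts and smooth muscle cells are known sources.

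Bulk RNA sequencing was done on ventricular myocardium of mice after transverse aortic constriction (TAC), which loads the left ventricle by narrowing the aortic arch, or after sham surgery. Both genotypes carried a Cre recombinase under the Tnnt2 promoter, which is active in cardiomyocytes. In the mice called KO it acted on both floxed alleles of Lmnb2, the gene of lamin B2, while the controls, called WT, carried the Cre alone. Mice were operated on at 10 to 12 weeks of age, and the 11 libraries comprised 3 KO TAC, 3 KO sham, 3 WT TAC and 2 WT sham. The Cre line targets cardiomyocytes, so fibroblasts and vessel cells, the known sources of these genes, were not its target. For WT sham 2 the genotype label reads WT, and for the remaining controls Lmnb2 WT. The titles end in F for KO TAC 3, KO sham 2 and WT TAC 1 and in M for the remaining libraries, so both WT sham libraries are M. This letter was taken as the sex of the mouse. No source used here gives the time between surgery and sampling.

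The 11 libraries held between 14770383 and 17333227 counts, at which 3 counts correspond to 0.173 to 0.203 CPM (counts scaled by library size). The 8 cardiomyocyte markers were abundant in every library, while the 4 atrial markers summed to at most 16.3 CPM, with 1 to 3 of them at 0 counts in every KO TAC library. Lmnb2 itself measured 9.72, 3.24 and 4.46 CPM in KO TAC, 0.649, 1.81 and 2.43 CPM in KO sham, 2.86, 2.16 and 6.70 CPM in WT TAC, and 4.44 and 3.86 CPM in WT sham. After TAC it was therefore not lower in the libraries labelled KO, and directions between genotypes below refer to the labels. The libraries KO TAC 1 and WT TAC 3 stood apart from their own groups. Their macrophage markers summed to 495 and 437 CPM, against 1149 to 2460 CPM in the other 4 TAC libraries. Ribosomal protein genes took 0.870% and 1.32% of their counts, against 3.17% to 6.73% in those 4. Endothelial markers summed to 1026 and 646 CPM, against 299 to 525 CPM in those 4. Adipocyte markers summed to 38.9 CPM in WT TAC 3 and to at most 4.41 CPM in each of the other 10 libraries. Mitochondrial shares were 35.9% in KO TAC 1 and 30.5% in WT TAC 3, against 13.2% to 25.9% in the other 4 TAC libraries. Of the 8 macrophage markers Lyz2 had the highest group mean, 705 CPM in KO TAC and 1277 CPM in WT TAC.

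After TAC, 9 of the 10 genes rose in KO hearts and the same 9 rose in WT hearts, and Fbln1 did not pass the test in either genotype. The 9 genes were called at an adjusted p under 0.05 in edgeR's quasi-likelihood test with Benjamini-Hochberg adjustment over 14619 genes. By that rule 3.32% of all tested genes were called higher and 1.37% lower in KO (4.70% in either direction), and 3.88% were called higher and 3.04% lower in WT (6.92% in either direction). The median log2 fold change of the 10 genes was 2.71 in KO and 3.52 in WT, beside medians over all tested genes of 0.03 in KO and 0.05 in WT. Each of the 9 genes was also higher in every TAC library than in any sham library of its genotype, which held for 13% of all tested genes in KO and 19.1% in WT. The calls leaned on the small sham groups: without WT sham 1 only Fbn1 and Mfap4 were called in WT, without WT sham 2 these and Mfap5, and without KO sham 1 Fbn1, Mfap2, Mfap4 and Mfap5 in KO, each still higher after TAC. Scaled by library totals alone, the same 9 genes were called, and calls over all genes split into 1325 higher and 60 lower in KO (486 and 201 with TMM) and 1044 higher and 133 lower in WT (567 and 444 with TMM). In bulk tissue, more cells of a type and more RNA per cell cannot be told apart.

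**Figure D1:**
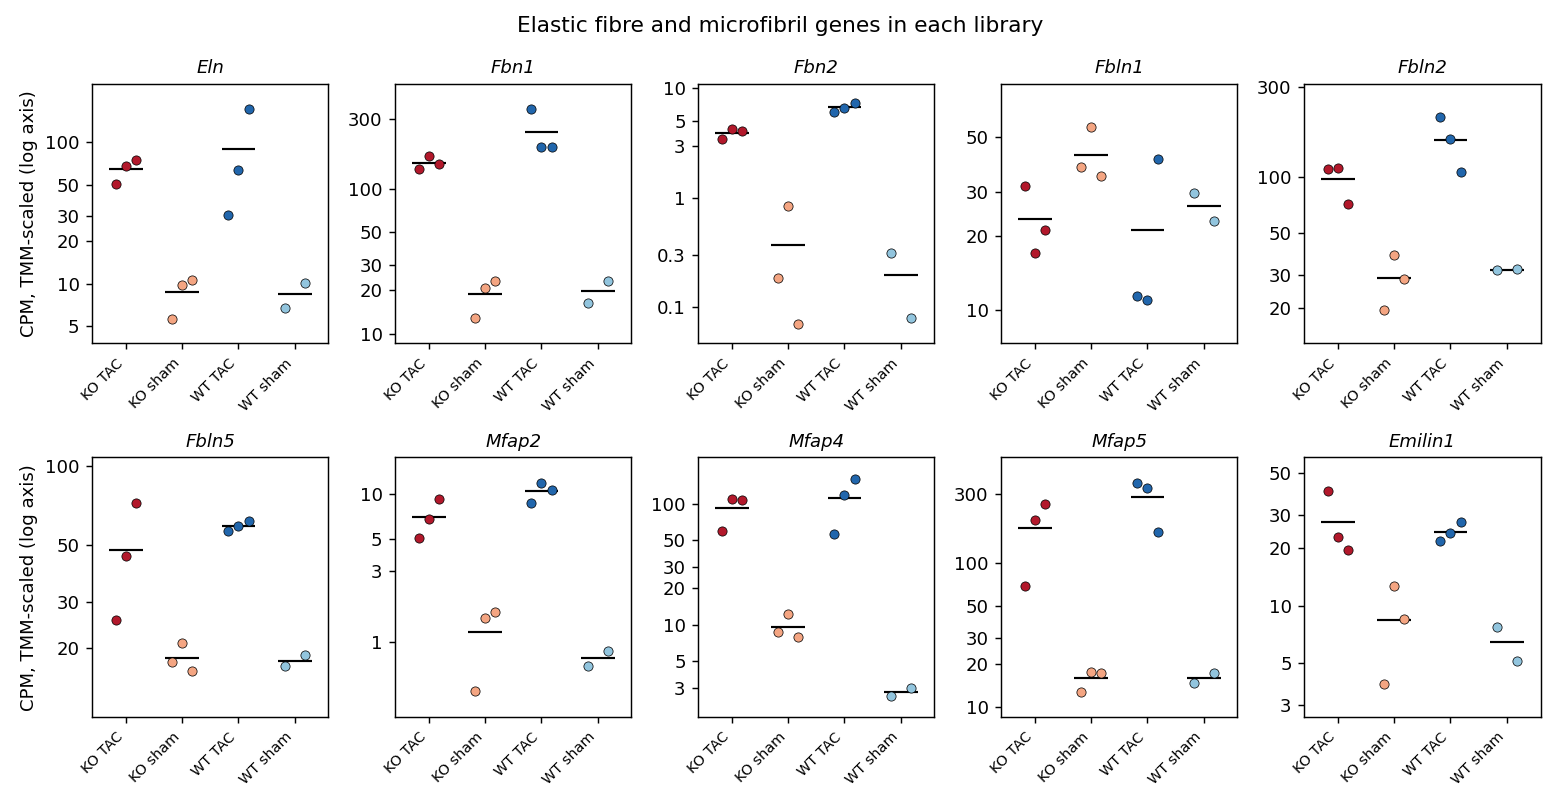
Level of each of the 10 genes in every library, in CPM scaled by the trimmed mean of M-values (TMM) on a log axis. Points are libraries and bars are group means. In all panels but that of Fbln1, the TAC libraries of each genotype lie above all its sham libraries. In the Fbln1 panel WT TAC 3 (40.8 CPM) lies well above the other WT TAC libraries.

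Elastin, encoded by Eln on chromosome 5 (134702593 to 134747323, minus strand, GRCm38), is the elastic core of the fibre. It measured 50.5, 68.4 and 75.0 CPM in KO TAC hearts, against 5.65, 9.84 and 10.6 CPM in KO sham hearts. In WT hearts it measured 30.7, 63.6 and 172.9 CPM after TAC, against 6.75 and 10.2 CPM after sham. The TAC and sham values did not overlap in either genotype, and the highest and lowest TAC values both belonged to WT hearts, with a 5.62-fold span between them. Eln rose by 2.89 ± 0.53 (log2, SE; 7.39-fold; edgeR adjusted p = 0.0103) in KO and by 3.40 ± 0.65 (10.5-fold; edgeR adjusted p = 0.0120) in WT. The call was lost without KO sham 1 in KO (edgeR adjusted p = 0.0593) and without either sham library in WT. Without WT TAC 3, which held the highest value, the log2 change in WT was 2.47.

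Fbn1 on chromosome 2 (125300594 to 125507993, minus strand) encodes fibrillin 1, the main structural protein of adult microfibrils, whose human gene is mutated in Marfan syndrome. It measured 135.5, 167.2 and 148.3 CPM in KO TAC, against 12.97, 20.9 and 23.2 CPM in KO sham. In WT TAC it measured 350.3, 193.4 and 191.9 CPM, against 16.4 and 23.1 CPM in WT sham. All sham values lay within 12.97 to 23.2 CPM, and the 3 WT TAC values all lay above the 3 KO TAC values. Fbn1 rose by 2.98 ± 0.34 (7.88-fold; edgeR adjusted p = 0.0011) in KO and by 3.64 ± 0.41 (12.4-fold; edgeR adjusted p = 0.0015) in WT. It kept both calls under all 21 alternative settings, as Mfap4 did.

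Fbn2 on chromosome 18 (58008623 to 58210487, minus strand) encodes fibrillin 2, which is known mainly from developing tissue. It was the scarcest of the 10 per kilobase in every group. It had 73, 73 and 72 counts in KO TAC libraries, against 2, 14 and 1 in KO sham libraries, and 102, 114 and 142 counts in WT TAC libraries, against 5 and 1 in WT sham libraries. Scaled, these were 3.48, 4.22 and 4.12 CPM in KO TAC, against 0.185, 0.845 and 0.0695 CPM in KO sham. The WT TAC values were 6.08, 6.66 and 7.37 CPM, against 0.313 and 0.0787 CPM in WT sham. Every WT TAC value was again above every KO TAC value, and KO sham 2 was the highest of the 5 sham libraries. Fbn2 rose by 3.32 ± 0.64 (edgeR adjusted p = 0.0123) in KO and by 4.99 ± 0.83 (edgeR adjusted p = 0.0067) in WT, and the sham counts make the size of either change uncertain. Leaving out KO sham 2 gave 4.94 in KO, and leaving out WT sham 1 or WT sham 2 gave 6.28 or 4.38 in WT, where neither passed.

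**Figure D2:**
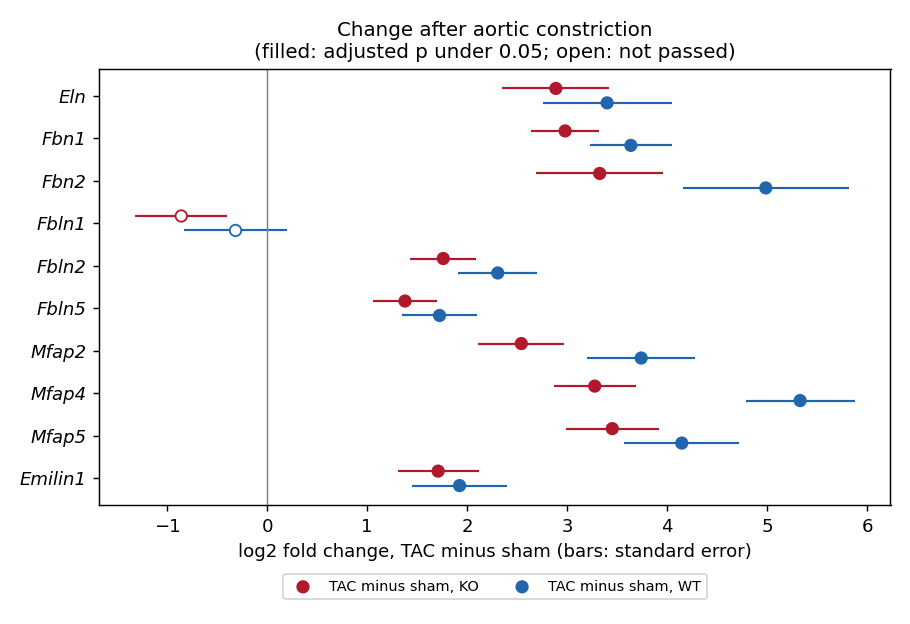
Log2 fold change of each gene, TAC minus sham, in KO (red) and WT (blue) hearts, with the standard error as bars. Filled points passed an adjusted p under 0.05 in edgeR and open points did not. The 2 open points are those of Fbln1, at -0.86 in KO and -0.32 in WT, and the point farthest to the right is Mfap4 in WT, at 5.33.

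The microfibril-associated proteins bind fibrillins along the microfibril. Mfap4 on chromosome 11 (61485431 to 61488900, plus strand) encodes a fibrinogen-domain protein that binds fibrillin and tropoelastin. It measured 59.0, 110.3 and 108.2 CPM in KO TAC, against 8.62, 12.1 and 7.85 CPM in KO sham. In WT TAC it measured 55.9, 118.1 and 161.2 CPM, against 2.56 and 2.99 CPM in WT sham. The 3 KO sham values lay above both WT sham values, and the TAC values of the genotypes overlapped. Mfap4 rose by 3.28 ± 0.41 (9.68-fold; edgeR adjusted p = 0.0016) in KO and by 5.33 ± 0.54 (40.2-fold; edgeR adjusted p = 0.0013) in WT. Its exons share 89 bases with Mapk7 on the opposite strand, which had 707 counts over all libraries beside 11587 for Mfap4, and whether counting used strand is not given in the sources used here.

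Mfap5 on chromosome 6 (122505845 to 122529290, plus strand) and Mfap2 on chromosome 4 (141010418 to 141015984, plus strand) encode the related small glycoproteins of the microfibril surface. Mfap5 measured 69.3, 197.0 and 253.8 CPM in KO TAC, against 12.8, 17.6 and 17.2 CPM in KO sham. In WT TAC it measured 356.2, 326.2 and 163.8 CPM, against 14.6 and 17.2 CPM in WT sham. The sham groups lay in the same narrow band, and the lowest value of each TAC group was that of KO TAC 1 and of WT TAC 3. Mfap5 rose by 3.45 ± 0.47 (10.9-fold; edgeR adjusted p = 0.0026) in KO and by 4.15 ± 0.57 (17.7-fold; edgeR adjusted p = 0.0032) in WT. Mfap2 lay between 5.004 and 9.21 CPM in KO TAC, against 0.463 to 1.60 CPM in KO sham, and between 8.76 and 11.8 CPM in WT TAC, against 0.688 to 0.866 CPM in WT sham. It rose by 2.54 ± 0.43 (edgeR adjusted p = 0.0064) in KO and by 3.74 ± 0.54 (edgeR adjusted p = 0.0037) in WT.

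Of the fibulins, Fbln2 and Fbln5 rose and Fbln1 did not pass. Fbln2 on chromosome 6 (91212455 to 91272540, plus strand) encodes a fibulin of elastic fibres, basement membranes and valves. It lay between 71.5 and 111.3 CPM in KO TAC, against 19.4 to 38.2 CPM in KO sham, and between 105.5 and 208.9 CPM in WT TAC, against 31.6 to 32.1 CPM in WT sham. It rose by 1.76 ± 0.33 (3.39-fold; edgeR adjusted p = 0.0111) in KO and by 2.31 ± 0.39 (4.94-fold; edgeR adjusted p = 0.0073) in WT. Fbln5 on chromosome 12 (101746565 to 101819055, minus strand) encodes a fibulin that binds integrins and guides elastin onto microfibrils, and it is required for elastic fibre assembly in mice. It lay between 25.7 and 72.1 CPM in KO TAC, against 16.3 to 21 CPM in KO sham, and between 56.5 and 61.7 CPM in WT TAC, against 17.1 to 18.7 CPM in WT sham. Fbln5 rose by 1.38 ± 0.32 (2.60-fold; edgeR adjusted p = 0.0304) in KO and by 1.72 ± 0.38 (3.30-fold; edgeR adjusted p = 0.0212) in WT, the smallest changes among the 9 that passed. In KO the Fbln5 call was lost in 7 of 21 alternative settings, among them leaving out KO TAC 2, KO TAC 3 or any KO sham library (edgeR adjusted p = 0.0691 to 0.128).

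Fbln1 on chromosome 15 (85205949 to 85286535, plus strand) encodes fibulin 1, which binds elastin, fibronectin and proteoglycans. It measured 31.7, 17.05 and 21.1 CPM in KO TAC, against 37.6, 54.4 and 34.8 CPM in KO sham. In WT it measured 11.4, 11.04 and 40.8 CPM after TAC, against 29.6 and 22.9 CPM after sham. All KO TAC values were below all KO sham values. In WT the values of TAC replicates 1 and 2 were below both sham values and that of replicate 3 was above them. How many of all tested genes lay wholly lower after TAC was not counted, so this only describes the values of Fbln1. The log2 change was -0.86 ± 0.46 (edgeR adjusted p = 0.346) in KO and -0.32 ± 0.51 (edgeR adjusted p = 0.728) in WT, and neither passed. Without WT TAC 3 the change in WT was -1.23 ± 0.36 and passed (edgeR adjusted p = 0.0343). With both WT TAC 3 and KO TAC 1 left out, Fbln1 was lower after TAC in both genotypes. The change was then -1.18 ± 0.27 in KO (edgeR adjusted p = 0.0094) and -1.23 ± 0.29 in WT (edgeR adjusted p = 0.0062). All 10 genes were called in each genotype in that setting, beside 2117 of 14363 tested genes in KO and 4374 in WT. Of these genes, 1036 were called lower in KO and 2077 in WT. The sign of the Fbln1 change in WT also turned with the scaling, to 0.06 with library totals alone.

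Emilin1 on chromosome 5 (30913402 to 30921277, plus strand) encodes a glycoprotein at the interface of elastin and microfibrils that in mice limits TGF-beta processing. It measured 40.2, 22.9 and 19.6 CPM in KO TAC, against 3.89, 12.7 and 8.54 CPM in KO sham, and lay between 21.8 and 27.5 CPM in WT TAC, against 5.12 to 7.75 CPM in WT sham. KO TAC 1, which had the lowest Mfap5, Mfap4 and Fbln5 of its group, had the highest Emilin1 and Fbln1. Emilin1 rose by 1.71 ± 0.40 (3.27-fold; edgeR adjusted p = 0.0322) in KO and by 1.92 ± 0.47 (3.79-fold; edgeR adjusted p = 0.0325) in WT. It lost the call in 6 of 21 alternative settings in each genotype. In KO these included leaving out KO TAC 1, KO TAC 2, KO sham 1, KO sham 3 or WT TAC 2 (edgeR adjusted p = 0.0505 to 0.115), with a log2 change of 1.30 without KO TAC 1, and in WT leaving out KO sham 3, WT TAC 1, WT TAC 2 or either WT sham library (edgeR adjusted p = 0.0541 to 0.255).

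Sequence around the RefSeq transcription start (250 bases before and 50 after) was at hand on GRCm38.p6 for 6 of the 10 genes, in 9 windows, and not for Eln, Fbn2, Mfap4 and Mfap5. The windows of Fbln2, Fbln5 and Fbn1, which rose, are shown beside that of Fbln1, which did not pass. Each is written from 5′ to 3′ on the strand of the gene, and the capitals mark every match to the motifs searched, on either strand. The motifs were TEAD (GGAATG), SMAD (CAGACA), AP-1 (TGANTCA), the GC box (GGGCGG), the TATA box (TATAAA) and the CArG box.
Fbln2, chr6:91212514-91212813, plus strand: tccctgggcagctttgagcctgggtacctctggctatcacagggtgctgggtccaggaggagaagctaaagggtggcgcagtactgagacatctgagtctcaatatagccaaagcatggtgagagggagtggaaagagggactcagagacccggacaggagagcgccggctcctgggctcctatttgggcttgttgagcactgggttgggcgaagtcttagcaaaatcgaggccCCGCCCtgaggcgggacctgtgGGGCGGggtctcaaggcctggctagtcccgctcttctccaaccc
Fbln5, chr12:101819070-101819369, minus strand: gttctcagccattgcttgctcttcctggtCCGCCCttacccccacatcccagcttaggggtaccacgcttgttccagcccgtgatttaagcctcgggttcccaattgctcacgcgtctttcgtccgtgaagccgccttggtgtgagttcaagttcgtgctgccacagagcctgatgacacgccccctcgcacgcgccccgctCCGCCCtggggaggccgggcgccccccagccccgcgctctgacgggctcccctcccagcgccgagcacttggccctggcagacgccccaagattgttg
Fbn1, chr2:125506389-125506688, minus strand: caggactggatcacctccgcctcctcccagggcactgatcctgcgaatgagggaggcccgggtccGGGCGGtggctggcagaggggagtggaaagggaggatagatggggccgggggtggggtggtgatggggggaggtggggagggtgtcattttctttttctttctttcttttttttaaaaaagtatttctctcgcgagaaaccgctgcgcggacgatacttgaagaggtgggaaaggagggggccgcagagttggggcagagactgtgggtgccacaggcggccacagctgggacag
Fbln1, chr15:85205699-85205998, plus strand: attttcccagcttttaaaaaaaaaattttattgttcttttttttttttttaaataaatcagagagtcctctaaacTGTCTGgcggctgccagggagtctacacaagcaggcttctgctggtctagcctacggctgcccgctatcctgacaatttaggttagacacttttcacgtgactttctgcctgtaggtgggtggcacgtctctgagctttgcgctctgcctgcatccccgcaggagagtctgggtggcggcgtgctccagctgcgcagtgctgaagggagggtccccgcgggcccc

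The Fbln2 and Fbln5 windows each held 2 GC boxes, at -16 to -11 and 7 to 12 from the start in Fbln2 and at -221 to -216 and -48 to -43 in Fbln5. The other Fbln5 window held no GC box and 1 SMAD match, at -15 to -10. The Fbn1 window held 1 GC box, at -185 to -180. The Fbln1 window shown held no GC box and 1 SMAD match, at -175 to -170, while the overlapping window of its other RefSeq start held 2 GC boxes and the same SMAD match. Over the 9 windows of the 6 genes, 5 held a GC box and 5 a SMAD match, while these motifs were found in 35.7% and 21.04% of 32851 windows of the same length over all genes. The TEAD motif was in 1 of the 9 windows (14.7% of all windows). The AP-1 motif (7.81% of all), the TATA box (13.6%) and the CArG box (1.63%) were in none of the 9. These are matches of letters in short windows and show no binding.

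Set against each other per kilobase of exon, the 10 genes formed a different mixture after TAC. Their summed level was 108, 173 and 187 CPM per kb in KO TAC libraries, against 25.2, 39.5 and 29.9 CPM per kb in KO sham libraries. It was 217, 227 and 216 CPM per kb in WT TAC libraries, against 24.0 and 24.3 CPM per kb in WT sham libraries. Neither genotype's TAC and sham sums overlapped, and all 3 WT TAC sums were above the KO TAC sums. Fbln1 made up 3.42% of the summed mean level in KO TAC, against 30.7% in KO sham, and 2.19% in WT TAC, against 24.9% in WT sham. It ranked first of the 10 in both sham groups and in rank 9 in both TAC groups. Its share was 2.43% in KO TAC without KO TAC 1, where it took rank 8, and 1.16% in WT TAC without WT TAC 3. Mfap5 made up 31.0% in KO TAC, against 13.99% in KO sham, and 35.7% in WT TAC, against 18.4% in WT sham. Mfap4 made up 30.9% in KO TAC, against 15.7% in KO sham, and 26.4% in WT TAC, against 5.99% in WT sham. These shares are descriptions of group means and were not tested.

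The order after TAC was the same at its head in both genotypes, with Mfap5, Mfap4, Fbln2 and Fbn1 in ranks 1 to 4. In both genotypes Mfap5 overlapped with Mfap4, and Fbln2 with Fbn1. In KO TAC, Mfap5 averaged 48.3 ± 26.3 and Mfap4 48.1 ± 15.1 CPM per kb, and Fbln2 averaged 15.3 ± 3.52 and Fbn1 12.4 ± 1.31 CPM per kb (SD, n = 3 each). In WT TAC, Mfap5 averaged 78.6 ± 28.8 and Mfap4 58.1 ± 27.5, and Fbln2 averaged 24.7 ± 8.12 and Fbn1 20.2 ± 7.51 CPM per kb (SD, n = 3 each). Mfap4 and Fbln2 did not overlap in KO TAC (30.7 to 57.4 and 11.2 to 17.5 CPM per kb) and did in WT TAC (29.1 to 83.9 and 16.6 to 32.8 CPM per kb). Eln averaged 7.98 ± 1.56 CPM per kb in KO TAC, against 1.08 ± 0.330 in KO sham (SD, n = 3 each). It averaged 10.998 ± 9.19 CPM per kb in WT TAC (n = 3), against 1.04 ± 0.297 in WT sham (n = 2), and the WT TAC mean was 5.82 CPM per kb without WT TAC 3. Fbn2 averaged 0.298 ± 0.0304 CPM per kb in KO TAC and 0.507 ± 0.0492 in WT TAC (SD, n = 3 each), below the other 9 genes.

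**Figure D3:**
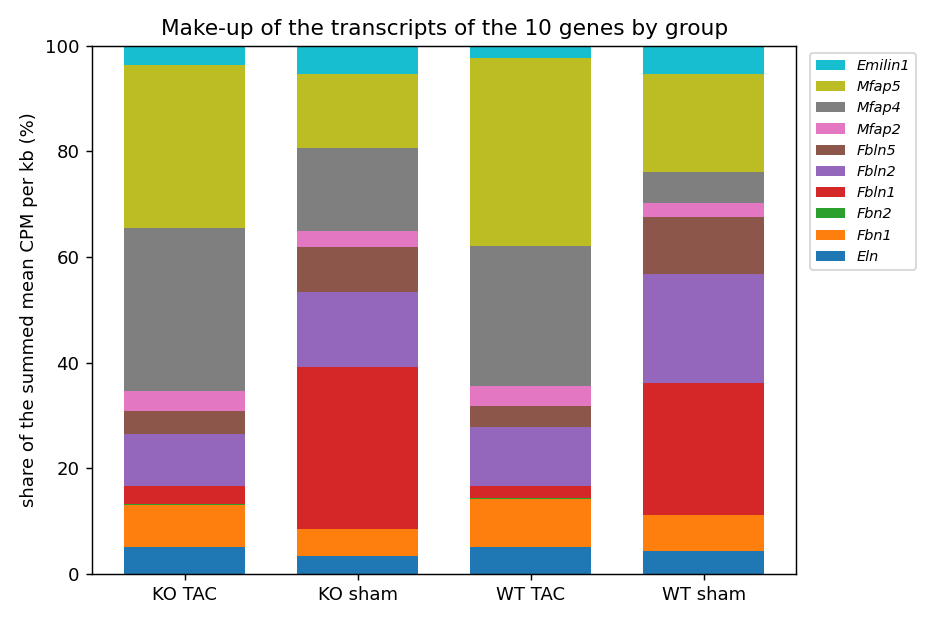
Share of each gene in the summed mean CPM per kb of the 10 genes, by group. In the TAC groups Mfap5 and Mfap4 are the largest segments (31.0% and 30.9% in KO, 35.7% and 26.4% in WT), while in the sham groups Fbln1 is the largest (30.7% in KO and 24.9% in WT).

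A ratio of levels within a library does not depend on its scaling as long as nothing is added to the levels. Such ratios of 3 gene pairs were compared between TAC and sham hearts with surgery labels permuted within genotype (exact permutation test, 2-sided, 200 arrangements, smallest possible p = 0.005). The ratio of Eln to Fbn1, the core relative to its scaffold, was 0.558, 0.612 and 0.757 in KO TAC, against 0.653, 0.704 and 0.686 in KO sham. In WT TAC it was 0.131, 0.492 and 1.35, against 0.617 and 0.659 in WT sham. The 3 WT TAC hearts thus spanned a range that enclosed all the others, and the log2 difference, with 0.5 CPM per kb added to both terms, was -0.44 (exact p = 0.595, adjusted over the 3 ratios 0.595). The ratio of Mfap5 to Mfap2 was 4.67, 9.83 and 9.30 in KO TAC, against 9.31, 4.09 and 3.62 in KO sham, and 13.7, 9.32 and 5.17 in WT TAC, against 7.18 and 6.72 in WT sham. The groups overlapped, and the log2 difference of 0.97 (exact p = 0.025, adjusted 0.0375) became 0.44 (exact p = 0.275) with nothing added. The ratio of Fbn2 to Fbn1 lay between 0.0232 and 0.0255 in KO TAC, against 0.00275 to 0.0370 in KO sham, and between 0.0159 and 0.0353 in WT TAC, against 0.00313 to 0.0175 in WT sham. Its log2 difference was -2.17 with 0.5 added (exact p = 0.005, adjusted 0.015, the smallest raw p possible) and 1.47 with nothing added (exact p = 0.06). The amount added exceeded the level of Fbn2 in most libraries, so no direction is given for this ratio.

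**Figure D4:**
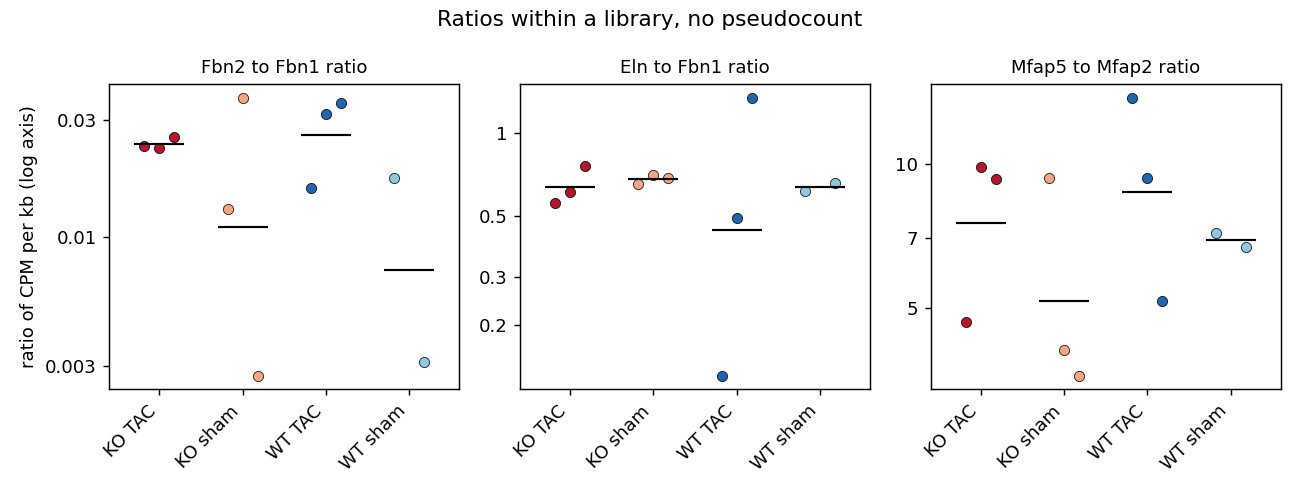
Ratios of CPM per kb within each library, with nothing added, on a log axis. Points are libraries and bars are geometric means. The Eln to Fbn1 ratio lies between 0.558 and 0.757 in 8 of the 11 libraries, and the other 3 are the WT TAC libraries.

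Between the genotypes, no gene of the 10 passed the test, in sham or in TAC hearts, and neither did any other gene (0.0% of all tested genes called in each comparison by edgeR). After TAC, 8 of the 10 genes had a lower fitted mean in KO than in WT, with a median log2 difference of -0.52, beside 49.1% of all tested genes below 0. Fbn1 differed by -0.71 ± 0.31 (edgeR unadjusted p = 0.0433, adjusted p = 0.747), and it and Fbn2 (-0.77 ± 0.53) were the 2 genes with every KO TAC value below every WT TAC value, which held for 3.34% of all tested genes. Fbln2 differed by -0.69 ± 0.32 and Mfap5 by -0.70 ± 0.42, with overlapping values, while Emilin1 (0.17 ± 0.39) and Fbln1 (0.14 ± 0.46) were slightly above 0. The Eln difference of -0.46 ± 0.49 became 0.46 without WT TAC 3. An unadjusted p under 0.05 was reached by 930 of all tested genes, and DESeq2 called 6 genes and limma-voom 0, none of them among the 10.

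After sham surgery, 7 of the 10 genes had a higher fitted mean in KO, beside 52.6% of all tested genes above 0, and 9 of the 10 differed by less than 1 on the log2 scale. Mfap4 was the exception, with 8.62, 12.1 and 7.85 CPM in KO sham, against 2.56 and 2.99 CPM in WT sham. Its log2 difference was 1.78 ± 0.47 (3.44-fold; edgeR unadjusted p = 0.0024, adjusted p = 1). It passed when genes with low counts were kept in the fit (edgeR adjusted p = 0.0191) and in no other setting. Fbln1 was the other gene with every KO sham value above every WT sham value, at 0.69 ± 0.52, and 6.8% of all tested genes met this. By edgeR 185 of all tested genes reached an unadjusted p under 0.05, and DESeq2 called 3 genes and limma-voom 0, none of them among the 10.

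The response to TAC was compared between the genotypes by the interaction, which passed for none of the 10 genes and for 0.0% of all tested genes in edgeR. All 10 interaction terms were negative, that is, the log2 change was smaller in KO or, for Fbln1, more negative. The median was -0.60, beside a median over all tested genes of 0.01. A negative term was found for 49.6% of all tested genes, and for 75.5% of the 302 genes that rose in both genotypes. Mfap4 had the largest term, at -2.05 ± 0.59 (edgeR unadjusted p = 0.0044, adjusted p = 0.992). The term uses the same 2 WT sham libraries as the sham comparison above, and it passed only when genes with low counts were kept (edgeR adjusted p = 0.0328). Fbn2 (-1.66 ± 1.02) and Mfap2 (-1.20 ± 0.65) followed, and those of Eln, Emilin1 and Fbln1 turned positive in at least 1 setting. An unadjusted p under 0.05 was reached by 434 of all tested genes, and DESeq2 called 2 genes and limma-voom 0, none of them among the 10.

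Genes that process, anchor or degrade elastic fibres were followed as 5 further lists. Beside each list, 3.32% of all tested genes were called higher and 1.37% lower in KO, with a median of 0.03. In WT 3.88% were called higher and 3.04% lower, with a median of 0.05. A single call in a list of 8 or 11 tested genes does not set its count apart from these shares. Lysyl oxidases cross-link tropoelastin and collagen, and 4 of the 5 rose in KO (median log2 fold change 2.34) and all 5 in WT (median 3.62). Lox rose by 4.70 ± 0.62 (edgeR adjusted p = 0.0022) in KO and by 6.52 ± 0.81 (edgeR adjusted p = 0.0021) in WT, more than any of the 10 genes. Loxl3 rose by 2.86 ± 0.36 in KO and 3.62 ± 0.44 in WT, Loxl2 by 2.34 ± 0.35 in KO and 2.59 ± 0.42 in WT, and Loxl1, which binds elastin and fibulin 5, by 1.67 ± 0.31 in KO and 2.32 ± 0.38 in WT. Loxl4, at 1.34 ± 0.79 in KO, was the one that did not pass there, and in WT it rose by 3.90 ± 1.03.

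Of the 11 microfibril partners, which include the latent TGF-beta binding proteins and ADAMTS-like proteins, 1 rose in KO (median 0.45) and 2 in WT (median 0.38), and none fell. Ltbp2, a fibrillin-binding protein that unlike its relatives does not bind latent TGF-beta, rose by 5.49 ± 0.53 (edgeR adjusted p = 5.45e-04) in KO and by 6.17 ± 0.65 (edgeR adjusted p = 0.0015) in WT. Adamtsl2 was at 2.01 ± 0.55 in KO, where it did not pass (edgeR adjusted p = 0.0557), and rose by 3.56 ± 0.70 (edgeR adjusted p = 0.0141) in WT. Ltbp3 was at 0.60 ± 0.31 in KO and 1.17 ± 0.36 in WT, and Adamts10 at 0.80 ± 0.30 in KO and 0.38 ± 0.34 in WT, none of which passed.

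Among the other fibulin, hemicentin, EMILIN and multimerin genes, 8 of 9 were tested (not Emilin3), of which 1 rose in KO (median 0.07), and 1 rose and 1 fell in WT (median -0.12). Efemp2, encoding fibulin 4, which recruits lysyl oxidase to tropoelastin, rose by 1.30 ± 0.31 in KO and 1.61 ± 0.36 in WT. Emilin2 was at -1.35 ± 0.37 in KO (edgeR adjusted p = 0.0558) and fell by 1.52 ± 0.40 in WT (edgeR adjusted p = 0.0405), opposite in sign to Emilin1. Efemp1, encoding fibulin 3, was at -2.73 ± 0.78 in KO and -1.13 ± 0.79 in WT, and Fbln7 at 0.99 ± 1.13 in KO and 2.61 ± 1.48 in WT, none of which passed.

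Of the elastin-degrading proteases, 7 of 9 were tested (not Mmp7 and Elane), and 3 rose in KO (median 1.40) and 4 in WT (median 1.87). Mmp14, a membrane-bound metalloproteinase, rose by 2.70 ± 0.37 in KO and 2.90 ± 0.44 in WT. The elastolytic cathepsins Ctsk and Ctss rose by 2.73 ± 0.58 and 2.25 ± 0.40 in KO and by 3.37 ± 0.68 and 2.95 ± 0.48 in WT. Of 8 integrin genes whose products bind fibrillin, fibulin 5 or microfibrils, 1 rose in KO (median 0.55), and 1 rose and 1 fell in WT (median 0.89). Itgb3 rose by 2.37 ± 0.50 in KO and was at 1.86 ± 0.57 in WT. Itga5 was at 0.80 ± 0.27 in KO and rose by 1.19 ± 0.31 in WT, and Itgb6, an epithelial integrin subunit, was at -1.20 ± 0.55 in KO and fell by 2.28 ± 0.61 in WT. Itgav was at 0.43 ± 0.41 in KO and 1.56 ± 0.48 in WT, and Itgb1 at 0.67 ± 0.26 in KO and 0.93 ± 0.30 in WT, none of which passed.

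**Figure D5:**
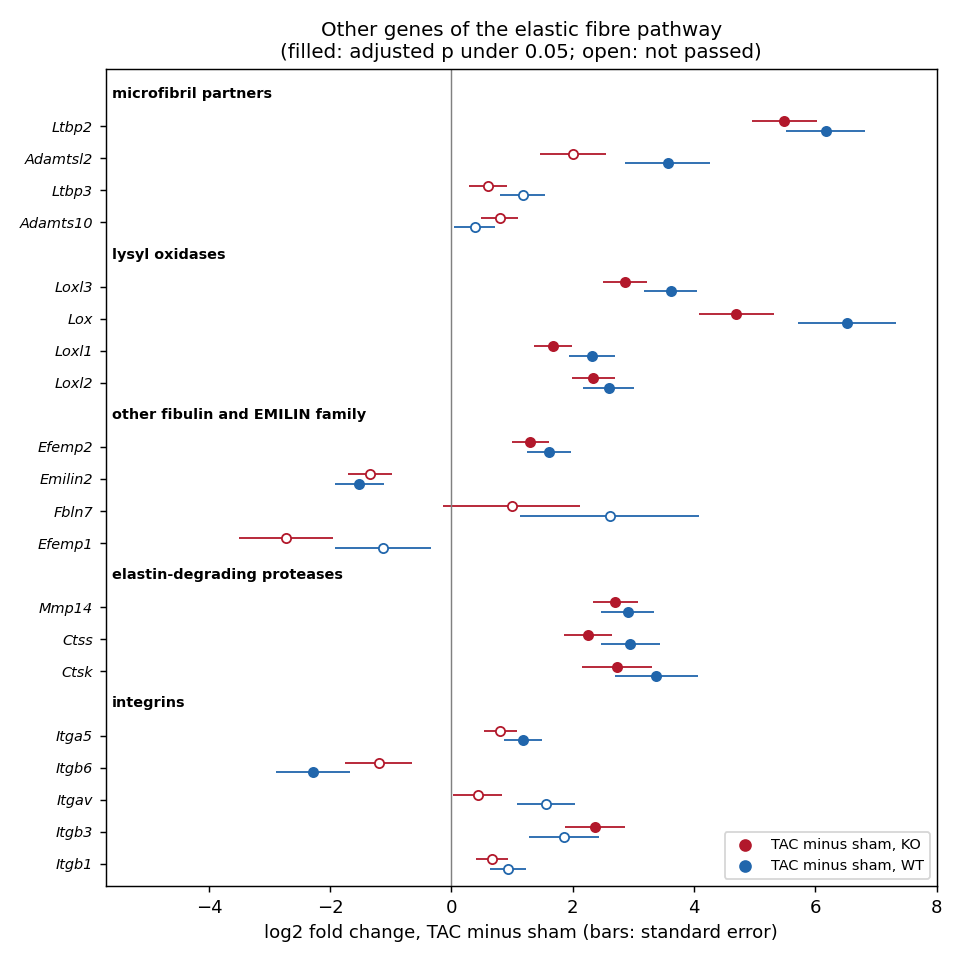
Log2 fold change, TAC minus sham, of the genes with the smallest p in each further list, in KO (red) and WT (blue) hearts, with the standard error as bars. Filled points passed an adjusted p under 0.05 in edgeR and open points did not. Lox (4.70 in KO and 6.52 in WT) and Ltbp2 (5.49 in KO and 6.17 in WT) lie farthest to the right.

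Markers of the cells that make elastic fibres differed in how they changed after TAC. Calls in these and the following marker lists stand beside 3.32% of all tested genes called higher and 1.37% lower in KO. In WT 3.88% of all tested genes were called higher and 3.04% lower. The 6 activated fibroblast markers summed to 757 to 1647 CPM in KO TAC, against 40.6 to 48.9 CPM in KO sham, and to 1357 to 3092 CPM in WT TAC, against 31.0 to 36.9 CPM in WT sham. In KO 5 of the 6 rose, and in WT all 6 did. The 10 fibroblast markers summed to 2782 to 3306 CPM in KO TAC, against 1730 to 1902 CPM in KO sham, and to 3490 to 6263 CPM in WT TAC, against 1364 to 1416 CPM in WT sham. In KO 3 of these rose and 1 fell, and in WT 4 rose. Those that rose in KO were the collagen genes Col1a1, Col1a2 and Col3a1, joined in WT by Lum. The marker that fell in KO was Gsn (-1.68 ± 0.35; edgeR adjusted p = 0.0181), which was at -1.11 ± 0.37 in WT and did not pass there. Pdgfra, Tcf21, Dcn, Dpt and Pi16 did not pass in either genotype. The smooth muscle markers summed to 279 to 330 CPM in KO TAC, against 218 to 280 CPM in KO sham, and to 249 to 461 CPM in WT TAC, against 146 to 190 CPM in WT sham. Of 7 tested, 1 rose in KO and 2 in WT, and the median log2 fold change was -0.03 in each genotype. Cnn1, Tagln and Acta2 were above 0 in both genotypes, and Myh11, Smtn, Mylk and Lmod1 were below 0 in both. The part of these cells in the changes of the 10 genes was not tested.

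The highest fibroblast and activated fibroblast sums (6263 and 3092 CPM) were those of WT TAC 1, which had the highest Fbn1, Mfap5 and Fbln2 of all libraries. The same library had the lowest Eln (30.7 CPM) and Mfap4 (55.9 CPM) of the TAC libraries. WT TAC 3 had the highest Eln, Mfap4 and Fbn2 of all libraries, and the lowest activated fibroblast sum of its group, 1357 CPM. Postn alone made up 2879 CPM of the activated fibroblast sum of WT TAC 1. Single fibroblast markers differed in their order. Dcn was highest of all libraries in WT TAC 1 (1215 CPM). Col1a1 was lowest of the TAC libraries in WT TAC 1 (102 CPM) and highest of all libraries in WT TAC 3 (263 CPM). Pericyte markers summed to 833 to 997 CPM in KO TAC, against 940 to 1228 CPM in KO sham, and to 564 to 683 CPM in WT TAC, against 851 to 1035 CPM in WT sham. These sums overlapped in KO and did not in WT. Of the pericyte markers, only Abcc9 was called in WT, where it fell (-1.94 ± 0.49, edgeR adjusted p = 0.0357), and none was called in KO. In WT hearts Abcc9 averaged 305 CPM after sham surgery and 79.8 CPM after TAC, so the lower WT sums rested largely on this gene. Rgs5, Kcnj8, Cspg4, Pdgfrb and Vtn did not pass in either genotype. Which cells the Abcc9 counts came from was not tested, so the sums are no measure of pericytes alone. Endothelial markers had no called gene in either genotype.

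Markers of other cells differed between TAC and sham hearts as well. The 8 cardiomyocyte markers summed to 28920 to 38538 CPM in KO TAC, against 48733 to 61446 CPM in KO sham, and to 31640 to 43472 CPM in WT TAC, against 43193 to 57643 CPM in WT sham. The sums did not overlap in KO and overlapped slightly in WT, and Tnni3 fell in KO, while Tnni3 and Pln fell in WT. The 8 macrophage markers summed to 495 to 1546 CPM in KO TAC, against 234 to 449 CPM in KO sham, and to 437 to 2460 CPM in WT TAC, against 226 to 369 CPM in WT sham. Every TAC sum was above the sham sums of its genotype, and Adgre1 rose in KO, while Adgre1 and C1qb rose in WT. The other 7 macrophage markers did not pass in KO, nor did the other 6 in WT. Lyz2 had the highest mean of the 8, at 705 CPM in KO TAC against 207 CPM in KO sham (edgeR adjusted p = 0.234). In WT it averaged 1277 CPM after TAC, against 163 CPM after sham (edgeR adjusted p = 0.0776). Ribosomal protein genes took 0.870% to 3.21% of counts in KO TAC, against 0.911% to 1.72% in KO sham, and 1.32% to 6.73% in WT TAC, against 0.651% to 1.52% in WT sham. Epicardial and mesothelial markers summed to 11.6 to 31.6 CPM in KO TAC, against 7.43 to 10.1 CPM in KO sham, and to 13.8 to 27.3 CPM in WT TAC, against 4.94 to 6.38 CPM in WT sham. Of the 4 that were tested, Aldh1a2 rose in each genotype. Cartilage and valve markers stayed low, at 5.26 to 6.67 CPM in KO TAC, against 0.834 to 2.36 CPM in KO sham, and 3.16 to 4.57 CPM in WT TAC, against 1.44 to 2.05 CPM in WT sham. Of these 5 markers 1, Sox9, was tested and was not called, and the TAC sums were above the sham sums in each genotype. The part of these cells and of the ribosomal share in the changes of the 10 genes was not tested.

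Over the 11 libraries, the genes most alike to Eln, Fbn1 and Mfap5 were found by the root mean square difference of mean-centred log2 CPM, among 11908 genes that averaged 1 CPM or more. For Fbn1 these were the collagen genes Col8a1 (0.26) and Col5a2 (0.27) and the secreted glycoprotein gene Fstl1 (0.38). For Mfap5 they were Col8a1 (0.38), Fstl1 (0.39) and Pdgfrl (0.39). For Eln they were Sfrp2 (0.44), which encodes a secreted Wnt modulator, Col16a1 (0.45) and Ankrd1 (0.47), a stress-responsive cardiomyocyte gene. Among the 10 genes themselves, the nearest to Fbn1 was Mfap2 (0.44), that to Mfap5 was Fbn1 (0.49) and that to Eln was Mfap2 (0.56), while Fbln1 was the farthest from all 3 (1.96 to 2.47). The libraries share surgery groups and depth, so these values describe the pattern and carry no test.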

How the data were processed

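The 11 samples are RNA of mouse ventricular myocardium, sequenced to 25 ± 3 M reads per sample per the labels' protocols. The table deposited by the authors holds raw counts per Ensembl gene, checked to be whole numbers. Per the submitters' processing notes, STAR 2.5.1, featureCounts and DESeq2 were used with build GRCm38, and the role of each, the annotation version and the strand setting are not given in the sources used here. Symbols and exon lengths came from GENCODE M21. It gave a symbol to 46005 of 46517 identifiers, and the other 512, which hold 0.0198% of counts, kept no name.

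Groups follow the genotype and treatment labels. All titles begin with TAC, and their numbers run from 1101 to 1138 in TAC and 1301 to 1376 in sham samples, so a batch that followed them cannot be told apart from surgery. Nothing pairs the samples, and p-values measure the spread between these samples.

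The test was that of edgeR 4.0.16 (R 4.3.3): filterByExpr (14619 genes kept), TMM scaling, 1 mean per group over 11 libraries, glmQLFit and glmQLFTest (7 residual degrees of freedom), 2-sided, with Benjamini-Hochberg adjustment and a threshold of 0.05. Standard errors are the log2 change over the root of F and are approximate. CPM values are TMM-scaled, and levels per kb divide them by exon length. The floor of 3 counts covers counting error only. The steps were tested on simulated data. Alternatives were other scaling, no low-count filter, DESeq2 1.42.0, limma-voom (limma 3.58.1), covariates, fewer groups, mitochondrial genes left out, and libraries left out; group means and shares without KO TAC 1 or WT TAC 3 were added after seeing the data.

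Genes named were the 10 members, the 3 genes with the smallest p per further list and genotype, the 3 genes most alike to Eln, Fbn1 and Mfap5, and Lmnb2; Loxl4 and the markers were named after their values were seen. The members and lists were chosen with earlier results of these data known.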

Additional observations from a re-analysis of the deposited data

How the results depend on the processing

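The 9 rises kept their direction under all 21 alternatives in both genotypes. Fbn1 and Mfap4 kept their calls in all of them in both genotypes, and Mfap2 and Mfap5 did so in KO only. Leaving out each library in turn gave 4 to 9 called members in KO and 2 to 10 in WT. Over all tested genes it gave 226 to 996 calls in KO and 30 to 2663 in WT; the lowest counts came without KO sham 1 and WT sham 1, and the highest without WT TAC 3. The counts as reported were 687 in KO and 1011 in WT. Without the low-count filter they were 1.3e+03 in KO (928 higher and 403 lower) and 2243 in WT. By DESeq2 they were 1490 in KO and 2197 in WT, and without WT TAC 3 and KO TAC 1 together 2117 in KO and 4374 in WT. In KO 1385 genes were called with library totals, under which the median over all genes was 0.49 in KO and 0.37 in WT, and 2295 with the ribosomal protein share as covariate. In WT 608 were called with sex as covariate and 465 with only the compared groups fitted. With the ribosomal covariate Eln in WT was at 4.06 and Mfap5 at 3.15.

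In place of 0 calls, removing the low-count filter gave 20 genes in KO against WT after sham, 206 after TAC and 80 for the interaction, with 1 member, Mfap4, in the first and last. DESeq2 gave 3, 6 and 2 genes, leaving out both libraries gave 2, 14 and 1, and fitting only the compared groups gave 4 after sham. Some uncalled differences crossed 0 when each library was left out in turn. After sham, KO against WT, the ranges were -0.21 to 0.36 for Eln, -0.27 to 0.21 for Fbn1, -0.72 to 2.19 for Fbn2, -0.41 to 0.066 for Fbln2, -0.079 to 0.11 for Fbln5, -0.12 to 0.12 for Mfap5 and -0.045 to 0.72 for Emilin1. After TAC they were -0.87 to 0.46 for Eln, -0.59 to 0.087 for Mfap4, -0.19 to 1.08 for Fbln1 and -0.24 to 0.40 for Emilin1. Interaction terms ranged from -0.92 to 0.41 for Eln, -0.88 to 0.39 for Fbln1 and -0.63 to 0.22 for Emilin1, and Fbln1 after TAC against sham in WT from -1.23 to 0.011. Other settings also crossed 0. After sham these were Fbln5 with sex (-0.12) or the ribosomal covariate (-0.025) and Mfap5 with library totals (0.013). After TAC they were Fbln1 (-0.042) and Emilin1 (-0.090) with the ribosomal covariate, and Eln (0.58), Mfap4 (0.31) and Emilin1 (-0.14) without both libraries. The interaction was 0.53 for Eln and 0.049 for Fbln1 without both, and Fbln1 in WT was at 0.055 with library totals and 0.34 with the ribosomal covariate.

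The Fbn2 to Fbn1 ratio turned to 1.47 with nothing added, a setting chosen after seeing the data, and lay between -2.27 and -2.01 with each library left out. The Mfap5 to Mfap2 ratio was 0.44 with nothing added (exact p = 0.275) and 0.58 with 0.1 CPM per kb added (exact p = 0.13). It lay between 0.81 and 1.16 with each library left out, at exact p = 0.05 without either WT sham library, and that of Eln to Fbn1 between -0.82 and -0.02. The cause of these changes was not tested, except that the added amount outweighs the Fbn2 level. No paired analysis was possible because replicate numbers were given in accession order and no label pairs the samples. Depth limits Fbn2 most, with 1 to 14 counts per sham library.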
